A study of Mus musculus with 2 samples.

Results

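The genes of surfactant production were followed in the scRNA-seq libraries of mouse lung: Sftpa1, Sftpb, Sftpc, Sftpd, Abca3, Lamp3, Slc34a2, Napsa and Lpcat1, chosen by name, 9 of the 27998 genes listed. All 9 were present in both libraries and all 9 passed a minimum mean level of 10 CPM in alveolar type 2 cells. UMIs are molecular tags that mark single captured RNA molecules, and CPM is the UMI count of a gene per 1000000 UMIs of the same cells. C57BL/6 mice (C57BL/6J in the study's methods) breathed either room air, with 21% O2, or, as the hyperoxia group, 80% O2 from the day of birth, and the lungs were taken at postnatal day 14. The exposure is used as a mouse model of bronchopulmonary dysplasia, a chronic lung disease of preterm infants. The cells of 8 mice were pooled in each library and each group had 1 library, so the spread between mice was not measured and no statistical test was made. The intervals below are exact 95% intervals that cover counting error only, and the differences compare these 2 libraries.

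Pulmonary surfactant is a film of phospholipids and proteins that lowers the surface tension of the alveoli and keeps them open. Type 2 (AT2) cells make it, store it in lamellar bodies and secrete it. SP-B and SP-C, the products of Sftpb and Sftpc, are small hydrophobic proteins that spread the lipid film, and SP-A and SP-D, the products of Sftpa1 and Sftpd, are collectins that bind microbes. ABCA3 carries phospholipids into the lamellar body, LAMP3 lies in its membrane, LPCAT1 remodels phosphatidylcholine, napsin A (Napsa) helps to cleave the SP-B precursor, and Slc34a2 encodes a phosphate transporter that takes up phosphate released from used surfactant.

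The room air library held 4234 barcodes and 39593888 UMIs and the hyperoxia library 13223 barcodes and 111934936 UMIs, and 17 barcodes occurred in both. After filtering, 3680 and 10472 cells were kept. A single cluster, with all 16 AT2 markers raised, was named AT2-like. It held 163 cells of room air and 829 of hyperoxia. The 9 genes and their pathway genes had no part in the clustering. The median AT2-like cell had 15941 UMIs in room air against 14801 in hyperoxia. AT2-like cells held 90.2% of the UMIs of the 9 genes in kept cells of room air and 95.5% in hyperoxia.

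Promoter sequences were taken from RefSeq (GRCm38.p6), where 6 of the 9 genes matched an entry (Abca3, Lamp3, Lpcat1, Sftpa1, Sftpb and Slc34a2). The 250 bases before the annotated start are shown for 4 of them: Sftpb and Sftpa1, the most abundant of the 6, Lpcat1, which had the lowest ratio between the libraries, and Slc34a2, which had the ratio nearest to 1. Capitals mark short motifs of factors known from AT2 cells, searched on both strands: CTCAAG for NKX2-1, TTGCNNAA for C/EBP, TGTTTNC for forkhead factors, and the TATA box TATAAA. No match overlaps another in these sequences. The RefSeq start used for Slc34a2 lies inside the span that the GRCm38 annotation gives the gene (chr5:53038081-53071664). Those of Lpcat1 and Sftpa1 lie just inside theirs (chr13:73467197-73516422 and chr14:41131782-41136452).
Sftpb (GRCm38.p6, chr6:72304360-72304609, + strand): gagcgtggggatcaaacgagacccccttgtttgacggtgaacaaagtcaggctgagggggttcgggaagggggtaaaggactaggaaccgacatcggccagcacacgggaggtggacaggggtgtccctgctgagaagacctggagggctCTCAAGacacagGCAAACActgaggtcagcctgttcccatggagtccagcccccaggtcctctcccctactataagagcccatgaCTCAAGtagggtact
Sftpa1 (GRCm38.p6, chr14:41131538-41131787, + strand): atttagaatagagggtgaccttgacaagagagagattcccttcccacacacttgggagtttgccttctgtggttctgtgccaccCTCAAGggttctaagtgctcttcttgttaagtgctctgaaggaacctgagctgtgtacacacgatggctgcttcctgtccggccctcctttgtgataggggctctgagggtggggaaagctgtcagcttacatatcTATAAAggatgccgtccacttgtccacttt
Lpcat1 (GRCm38.p6, chr13:73466981-73467230, + strand): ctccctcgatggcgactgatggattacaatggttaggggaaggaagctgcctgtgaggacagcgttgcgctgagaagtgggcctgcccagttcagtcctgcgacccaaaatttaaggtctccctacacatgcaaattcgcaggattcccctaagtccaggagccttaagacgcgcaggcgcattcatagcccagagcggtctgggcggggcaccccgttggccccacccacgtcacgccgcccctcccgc
Slc34a2 (GRCm38.p6, chr5:53049103-53049352, + strand): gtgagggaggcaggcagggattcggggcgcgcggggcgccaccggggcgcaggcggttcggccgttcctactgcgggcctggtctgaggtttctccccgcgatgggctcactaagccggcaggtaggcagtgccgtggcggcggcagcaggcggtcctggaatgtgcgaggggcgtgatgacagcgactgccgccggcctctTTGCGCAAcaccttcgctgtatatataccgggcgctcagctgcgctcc

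The Sftpb window held the NKX2-1 motif 2 times, with a forkhead motif between the copies, and the Sftpa1 window held an NKX2-1 motif and a TATA box. Slc34a2 had a C/EBP motif and Lpcat1 had none of the 4 motifs. Lamp3 held 2 forkhead motifs and Abca3 no match. Of 32851 promoters of the same length, 13.3% held the NKX2-1 motif, 9.56% the C/EBP motif, 17.8% the forkhead motif and 12.4% the TATA box, so each is common and a match describes letters only.

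In AT2-like cells the 9 genes together made up 246978 CPM (interval 246367 to 247591) in room air against 208336 CPM (208079 to 208592) in hyperoxia (log2 ratio -0.25). Sftpc and 7 other genes had a lower level in hyperoxia beyond counting error, and the interval of Slc34a2 included equal levels. All 9 ratios were below 1 by some amount, as were 48.3% of the 7346 genes tested in these cells, but Slc34a2 turned to above 1 under TMM and DESeq2 scaling and with double the doublet removal, Sftpd after thinning, and both when mitochondrial, ribosomal and haemoglobin genes were left out of the totals. Lpcat1 was the only member at least 1.5-fold apart, against 13.5% of all genes tested and 7.5% that were at least 1.5-fold lower, and it was past 1.5-fold under neither of those scalings (log2 ratios of -0.55). No member was 2-fold apart, against 3.25% of all genes tested. The intervals of 8 of the 9 ratios lay below 1, against 17.2% of all genes tested, although deep counts give the members narrower intervals than most genes have. The median log2 ratio of the 9 genes was -0.40, and that of all genes tested was 0.01. Which library was higher depended on which cells were called AT2-like. When each library was clustered on its own, 8 of the 176 AT2-like cells of room air were cells of the airway (club-like) class that held 20.7% of the UMIs, and the log2 ratio became 0.088. Sftpc (0.12), Sftpd (0.17) and Slc34a2 (0.33) were then above 0. A filter of 1000 genes and 10% mitochondrial UMIs, under which 7 club-like cells of room air were among the AT2-like cells, likewise gave 0.086 for the sum, 0.11 for Sftpc, 0.19 for Sftpd and 0.34 for Slc34a2. The sum was -0.24 under both settings without the club-like cells, and -0.22 for the median single cell.

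**Figure D1:**
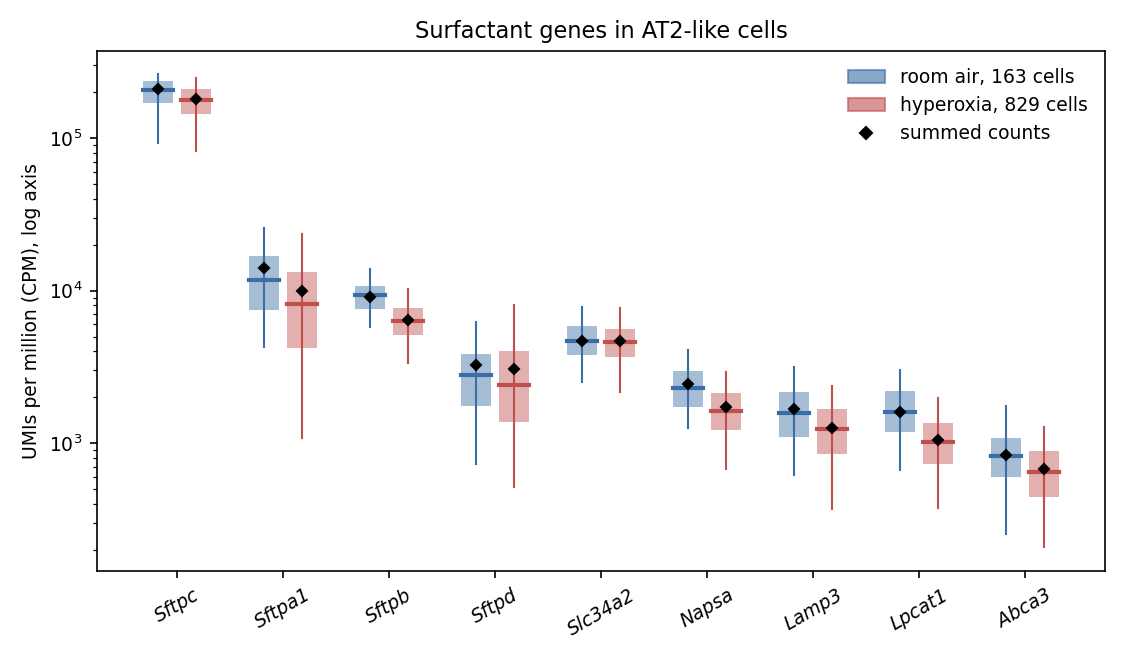
CPM (log axis) of the 9 genes in AT2-like cells of room air (163 cells, blue) and hyperoxia (829 cells, red). Boxes span the 25th to 75th percentile of cells, thick lines are medians, thin lines run from the 5th to the 95th percentile, and black diamonds are the levels from summed counts; the boxes of the libraries overlap for each gene, with nearly the same median for Slc34a2.

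Sftpc (chr14:70520949-70524081, minus strand, GRCm38) was the most abundant gene of AT2-like cells in both libraries. Its level was 209380 CPM (208817 to 209945) in room air against 179477 CPM (179239 to 179715) in hyperoxia, which is 20.9% and 17.9% of all UMIs of these cells. The log2 ratio was -0.22 (-0.23 to -0.22). In single cells the 25th to 75th percentile range of 170149 to 235708 CPM in room air overlapped that of 143564 to 208403 CPM in hyperoxia. Sftpc supplied 84.8% of the UMIs of the 9 genes in room air and 86.1% in hyperoxia, so the sum mostly follows this gene.

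Sftpb (chr6:72304610-72314371, plus strand) stood at 9139 CPM (9022 to 9258) in room air against 6411 CPM (6366 to 6456) in hyperoxia, so that the log2 ratio was -0.51 (-0.53 to -0.49). Its rank among all genes was 6 in room air and 12 in hyperoxia. SP-B is the surfactant protein that mice cannot live without after birth. The median cell had 136 UMIs of Sftpb in room air and 89 in hyperoxia, and the ranges between the 25th and 75th percentile (101.5 to 181 and 62 to 120) overlapped.

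The collectin genes, which lie on chromosome 14 (Sftpa1 at chr14:41131782-41136452 and Sftpd at chr14:41172214-41185149, GRCm38), differed from each other. Sftpa1 was 13990 CPM (13845 to 14137) in room air against 9999 CPM (9943 to 10056) in hyperoxia, so that the log2 ratio was -0.48 (-0.50 to -0.47). Sftpd was 3237 CPM (3167 to 3307) and 3076 CPM (3045 to 3107), so that the log2 ratio was -0.07 (-0.11 to -0.04). The spread of both between cells was wider in hyperoxia. The 95th percentile of Sftpa1 was 6.00 times the 5th in room air and 21.9 times in hyperoxia, and for Sftpd these values were 8.53 and 15.6. For Sftpb they were 2.42 and 3.1.

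The genes of lipid handling and of the lamellar body were far below Sftpc in UMIs, which are counted at the 3′ end of a transcript and were not divided by length. Lpcat1 (chr13:73467197-73516422) stood at 1608 CPM (1559 to 1658) in room air against 1053 CPM (1035 to 1072) in hyperoxia, so that the log2 ratio was -0.61 (-0.66 to -0.56). Only 6.86% of the genes tested had a lower log2 ratio. Lamp3 (chr16:19653378-19706375) was 1669 CPM (1619 to 1720) and 1265 CPM (1245 to 1285), so that the log2 ratio was -0.40 (-0.45 to -0.35). Abca3 (chr17:24351950-24410201) was the least abundant member, at 837 CPM (801 to 873) and 673 CPM (659 to 688), so that the log2 ratio was -0.31 (-0.38 to -0.24). For single cells of room air the 25th to 75th percentiles of Abca3, Lamp3 and Lpcat1 were 598 to 1080, 1092 to 2163 and 1184 to 2185 CPM. For hyperoxia they were 443 to 889, 849 to 1667 and 731 to 1345 CPM, so the ranges overlapped for each of the 3 genes.

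Napsa (chr7:44572380-44586862) was 2455 CPM (2394 to 2517) in room air against 1734 CPM (1711 to 1758) in hyperoxia, so that the log2 ratio was -0.50 (-0.54 to -0.46). Exons of Napsa overlap those of Gm15396 on the other strand, which had 1 UMI in AT2-like cells of room air and 4 in hyperoxia. Slc34a2 was 4663 CPM (4580 to 4748) and 4647 CPM (4609 to 4685), a log2 ratio of -0.01 with an interval of -0.03 to 0.02. Relative to the UMIs of all genes other than the 9, Slc34a2 was at -0.08, Sftpd at -0.15, Sftpc at -0.29 and Lpcat1 at -0.68, so leaving the members out of the totals lowered each ratio.

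Detection was compared after each AT2-like cell had been thinned to 2000 UMIs, which left 161 cells in room air and 825 in hyperoxia. Abca3 was found in 83.2% (interval 76.5 to 88.6) of room air cells and 72.8% (69.7 to 75.9) of hyperoxia cells. Lpcat1 was found in 93.8% (88.9 to 97.0) and 84.6% (82.0 to 87.0), and Napsa in 99.4% (96.6 to 100) and 93.8% (92.0 to 95.4). No share over all genes was measured here, so detection of the members is not set against that of other genes. The intervals of these 3 genes did not overlap between the libraries, and those of the other members did. At 1000 UMIs per cell those of Abca3 (57.7%, 49.7 to 65.4, against 52.1%, 48.6 to 55.6) and Napsa (82.8%, 76.1 to 88.3, against 76.6%, 73.6 to 79.4) overlapped, and those of Lpcat1 (73.0%, 65.5 to 79.7, against 61.8%, 58.4 to 65.1) did not. Sftpa1 was found in 100% (97.7 to 100) and 97.6% (96.3 to 98.5), Sftpd in 98.1% and 94.7%, Lamp3 in 91.9% and 89.0%, and Slc34a2 in 99.4% of both. With all UMIs of each cell, each gene was found in at least 98.4% of AT2-like cells of either library. As a background, B-like cells thinned in the same way (373 and 1194 cells, with 40 and 167 shallower cells left out) had a UMI of Sftpc in 52.5% of room air and 80.3% of hyperoxia cells, of Sftpa1 in 5.09% and 9.80%, of Lpcat1 in 6.17% and 7.37%, and of Abca3 in 4.56% and 5.28%.

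The pathway around the 9 genes was read from 4 lists of 40 genes, of which 30 passed the minimum level. Of these 30, 3 were at least 1.5-fold lower in hyperoxia (Cebpa, Scd1 and Hps4) and 2 at least 1.5-fold higher (Prdx6 and Lrrk2), against 7.5% and 6.02% of all genes tested. The balance depended on the processing, with 1 lower and 4 higher under the stricter cell filter and under separate clustering, and 8 lower and 1 higher after thinning. The intervals of 18 lay below 1 and those of 5 above 1, where 17.2% and 17.9% of all genes did so. Genes with deep counts have narrower intervals, so these shares are not like for like. The median log2 ratio of the 30 was -0.24.

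All 8 regulators of AT2 cells were tested and 7 had intervals below 1, against 17.2% of all genes tested, with a median log2 ratio of -0.37. Nkx2-1, which encodes the homeobox factor that switches on the genes of SP-A, SP-B and SP-C, was 444 CPM in room air against 315 CPM in hyperoxia (log2 ratio -0.50). Cebpa, a leucine zipper factor of late AT2 cell maturation, was 237 and 145 CPM (-0.71). The forkhead genes Foxa1 and Foxa2 and Gata6 were at -0.35, -0.34 and -0.39, and Nr3c1, the glucocorticoid receptor, was at -0.43. Klf5 was at -0.23 with an interval of -0.54 to 0.08, which includes 0.

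Among 11 lipid synthesis genes tested, 8 had intervals below 1 and 2 above 1, against 17.2% and 17.9% of all genes tested. Scd1, the enzyme that makes monounsaturated fatty acids, was 2466 CPM in room air against 1519 CPM in hyperoxia (log2 ratio -0.70). Of the choline pathway, Chka was at -0.46, Pcyt1a at -0.35 and Chpt1 at -0.38, whereas Cept1, a choline and ethanolamine phosphotransferase, was higher, at 38.7 and 49.4 CPM (0.35, 0.04 to 0.68). Acly (-0.51), Elovl1 (-0.58) and Fasn (-0.25), genes of fatty acid synthesis, were lower. Prdx6 was also higher, at 231 and 490 CPM (log2 ratio 1.08, 0.96 to 1.21). It encodes an enzyme with peroxidase and phospholipase activity that takes part in surfactant lipid turnover and in antioxidant defence.

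The list of protein processing and lamellar bodies had a median log2 ratio of 0.18 over 9 genes tested, against -0.37 for the regulators and -0.35 for lipid synthesis. Ctsh, a protease that cleaves the SP-B and SP-C precursors, was 804 CPM in room air against 1040 CPM in hyperoxia (0.37). Cd63, a membrane protein of late endosomes and lamellar bodies, was 538 and 744 CPM (0.47), and Lrrk2, a kinase of lysosome-related organelles, 117 and 178 CPM (0.61). Atp8a1, a lipid flippase, was at 621 and 630 CPM and Nedd4, a ubiquitin ligase that binds pro-SP-C, was at -0.20. Pgc, which encodes progastricsin, an SP-B processing protease, was below the minimum level, at 16.6 CPM and 0.904 CPM. Only Adgrf5 and Csf2 were tested in the list of secretion and turnover, at -0.12 and 0.32, and the interval of Csf2 (-0.24 to 0.93) includes 0.

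Of the 16 AT2 markers that named the cluster, 9 were at least 1.5-fold lower in hyperoxia and none higher, against 7.5% and 6.02% of all genes tested. The intervals of 15 lay below 1, against 17.2% of all genes, although genes with deep counts have narrower intervals. The median log2 ratio of the 16 was -0.63. Lyz1, a lysozyme, was 5599 CPM in room air against 1098 CPM in hyperoxia, Cxcl15 was 7340 and 4302 CPM, and Chil1 was at 2238 and 2239 CPM. These markers took part in the clustering. Other cell lists moved with the same contrast. Summed AT1 markers were 3252 CPM in room air against 2002 CPM in hyperoxia (all 12 detected in both, Ager 1566 and 536 CPM). Of the 9 AT1 markers tested, 3 were at least 1.5-fold lower, none higher and 6 within 1.5-fold. Intervals of 5 lay below 1, and that of Col4a3 lay above 1 (log2 ratio 0.56). A list of transitional epithelial genes was 430 and 889 CPM, with Cdkn1a at 34.7 and 353 CPM and Lgals3 at 26.5 and 111 CPM. Of its 8 genes tested, 3 were at least 1.5-fold higher, none lower and 5 within 1.5-fold. Cdkn1a and Lgals3 supplied most of the rise of this sum. Krt8, Krt18 and Krt19 had log2 ratios of 0.45, 0.14 and 0.60. Sfn (-0.10), Areg (-0.04) and Cryab (-0.24) were below 0, with intervals that include 0. Cell cycle genes were 410 and 193 CPM. Summed endothelial markers were 71.9 and 75.1 CPM, stromal markers 310 and 374 CPM, neutrophil markers 118 and 45.3 CPM, and club cell markers 3505 and 3655 CPM. Ribosomal protein genes took 12.6% and 16.2% of the UMIs, and the median mitochondrial share was 3.71% and 4.69%. The part of these differences in the surfactant gene values was not tested.

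**Figure D2:**
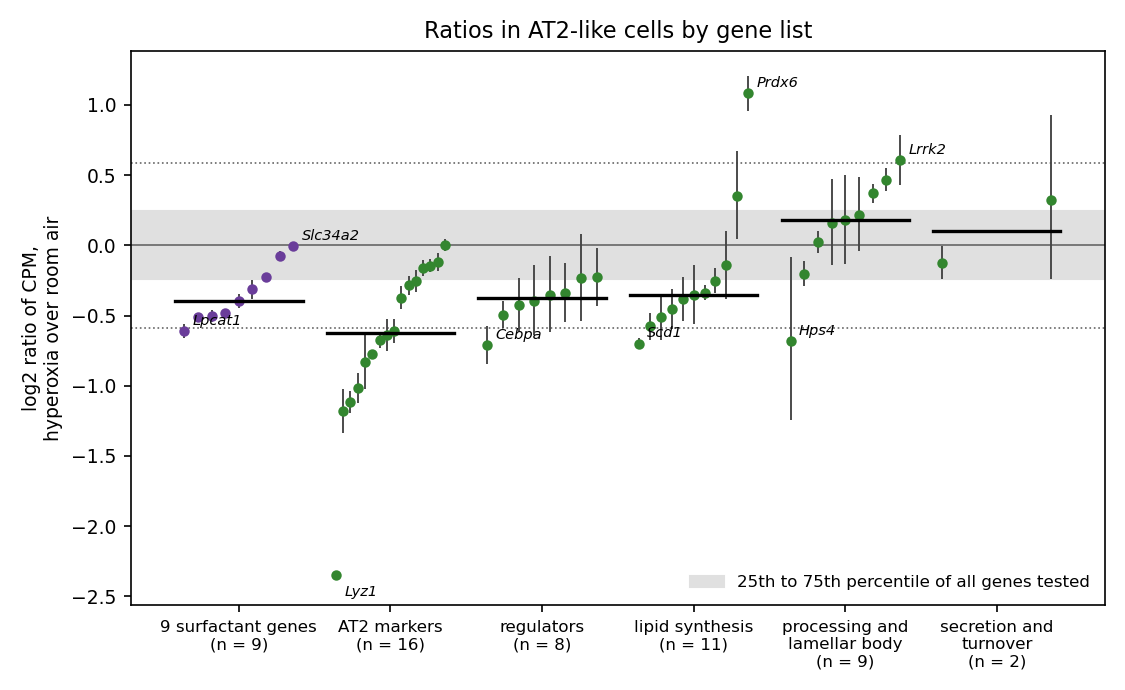
Log2 ratio of CPM (hyperoxia over room air) in AT2-like cells for the 9 surfactant genes, 16 AT2 markers and the tested genes of 4 pathway lists; vertical lines are 95% counting intervals, black bars list medians, dotted lines 1.5-fold and the grey band the middle 50% of 7346 genes. The medians of the 9 genes, AT2 markers, regulators and lipid synthesis genes lie below the grey band, and that of the processing list lies within it.

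Correlations from cell to cell differed between pairs of members. Over 36 pairs in thinned AT2-like cells the median Spearman correlation was 0.04 in room air (161 cells) and 0.08 in hyperoxia (825 cells). The cells of a library share its depth and free RNA, and the counts are sparse, so these values are descriptions. The highest pair was Sftpa1 with Sftpd in both libraries, at 0.50 and 0.58. Next came Sftpc with Napsa in room air (0.31) and Sftpa1 with Sftpc in hyperoxia (0.37). The lowest pair of room air was Sftpa1 with Lpcat1 (-0.30), which was at -0.19 in hyperoxia.

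When the AT2-like cells were clustered again without the 9 genes and pathway genes, 8 subclusters were found, and the libraries were largely apart. Subcluster 2 held 149 of the 163 room air cells and 24 hyperoxia cells. The collectins differed most between the 7 subclusters with at least 20 hyperoxia cells. Sftpa1 ranged from 4170 to 22238 CPM, 5.33-fold, and Sftpd from 1453 to 7439 CPM, 5.12-fold, whereas the other 7 genes ranged over 1.39-fold (Napsa) to 1.93-fold (Lamp3). Both were lowest in subcluster 3 (141 hyperoxia cells), whose leading genes include the stress response genes Atf5, Gdf15, Nupr1 and Cdkn1a, and Slc34a2 there was 4788 CPM. Both were highest in subcluster 6 (74 hyperoxia cells and 1 room air cell), led by genes of innate defence such as Saa3, Lcn2, Cxcl5 and Slpi, where Sftpb was 5696 CPM and Lpcat1 726 CPM. Subcluster 5 (12 room air and 69 hyperoxia cells) had few UMIs, with medians of 4674 and 5474, and a mitochondrial share of 12.9% and 13.2%. It was low in Sftpc (104748 and 114321 CPM), and without it, a setting chosen after seeing the data, the log2 ratio of Sftpc was again -0.22 and that of Lpcat1 was -0.62.

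**Figure D3:**
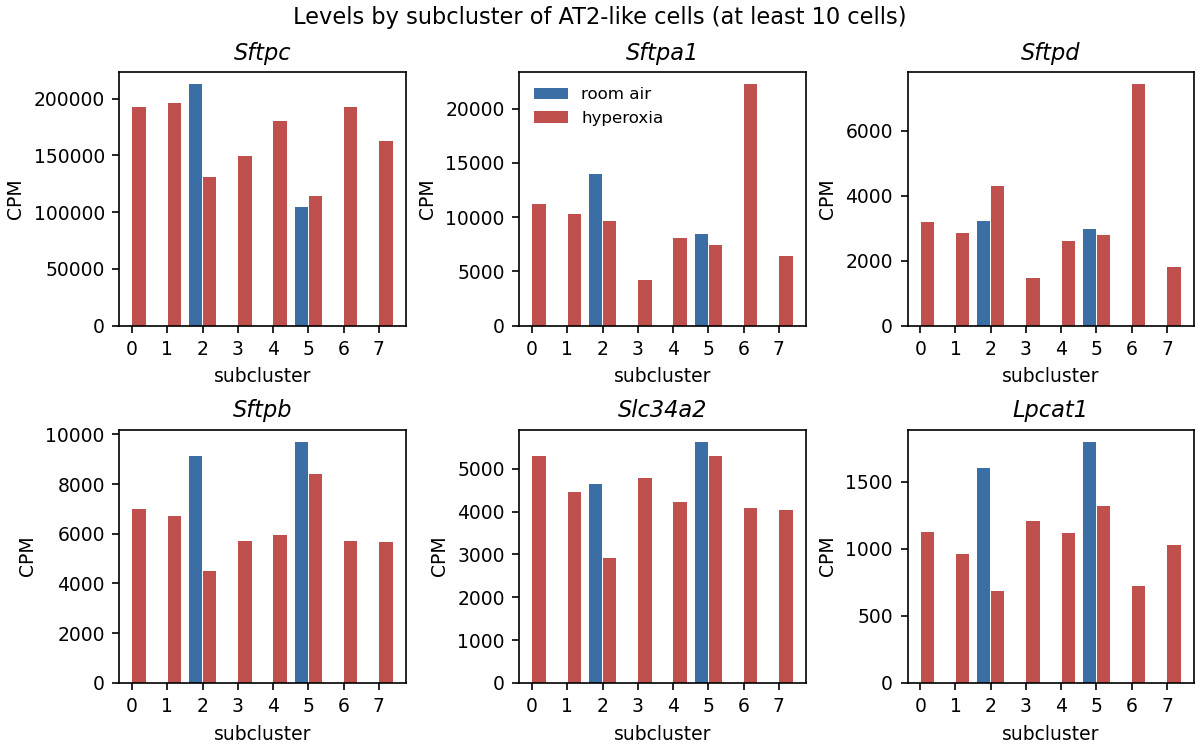
CPM of 6 genes in the subclusters of AT2-like cells (x axis, subcluster number), room air in blue and hyperoxia in red, shown where a library had at least 10 cells. Sftpa1 and Sftpd are lowest in subcluster 3 and highest in subcluster 6, while Slc34a2 and Lpcat1 follow other orders.

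Outside AT2-like cells, UMIs of the same genes were counted in each class, at levels that differed widely between classes. In droplet data free RNA adds UMIs to cells that do not express a gene, and RNA from 1 source keeps its genes in 1 ratio in each class, so every member was compared with Sftpc as a percent of the AT2-like level. In the 10 endothelial, stromal, pericyte and leukocyte classes Sftpc was at 0.09 to 0.97% of that level in room air, against 0.22 to 0.68% in hyperoxia. A UMI of it was found in at least 80.6% and 91.6% of the cells of each class. Sftpa1, Sftpb, Sftpd, Lamp3 and Slc34a2 kept near to this ratio, with medians over classes between 0.92 and 1.63 times the percent of Sftpc in room air and between 1.02 and 1.29 times in hyperoxia. In single classes these 5 genes lay between 0.361 and 2.81 times where they had a UMI. For Napsa, Abca3 and Lpcat1 the medians were 13.6, 14.3 and 6.59 times in room air and 7.76, 7.64 and 5.71 times in hyperoxia.

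**Figure D4:**
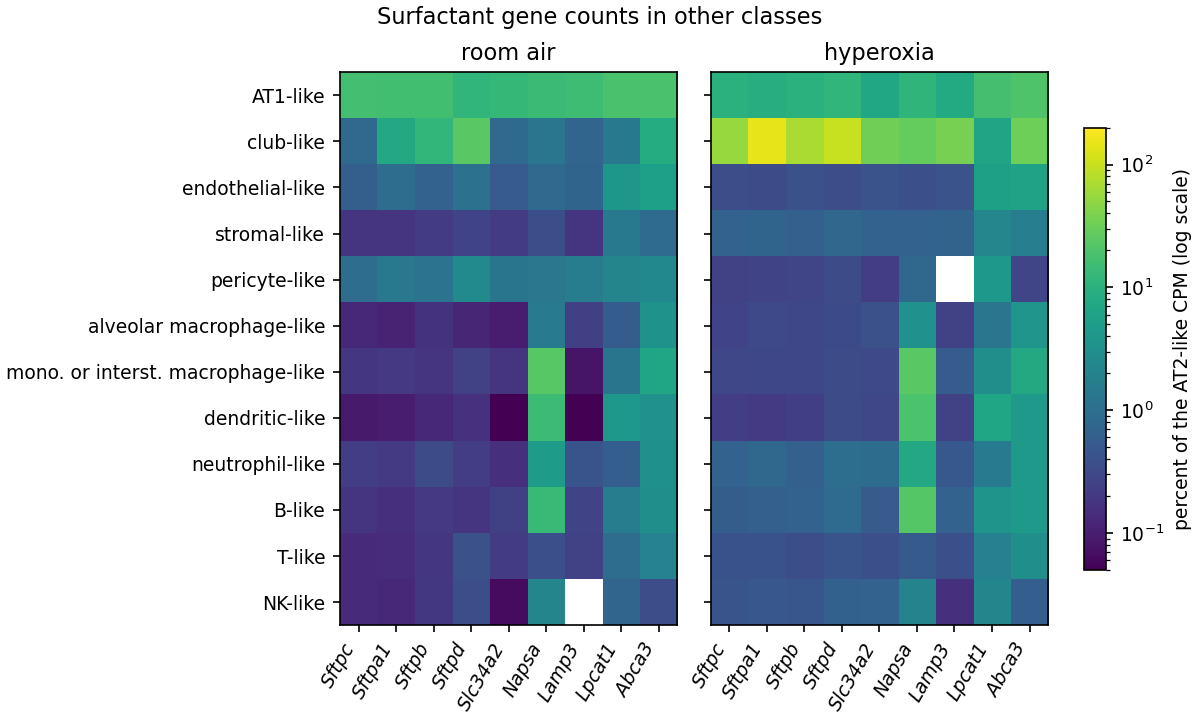
Level of each gene (columns) in other cell classes (rows) as a percent of the AT2-like CPM of the same library, on a log colour scale, with room air left and hyperoxia right; white marks no UMI. Napsa stands out in monocyte or interstitial macrophage, dendritic and B-like cells of both libraries, and the club-like row of hyperoxia rests on 1 of 14 cells.

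Napsa was highest outside the epithelium in monocyte or interstitial macrophage-like cells, at 577 CPM in room air (417 cells) against 417 CPM in hyperoxia (419 cells), which is 23.5% and 24.1% of the AT2-like level. In B-like cells it was 343 CPM (319 to 369) and 387 CPM (369 to 405), and in dendritic-like cells 361 and 336 CPM. Relative to Sftpc these levels were 126 and 83.1 times, 79.4 and 38.0 times, and 163 and 87.3 times what the ratio in AT2-like cells gives. Thinned B-like cells held a Napsa UMI in 35.9% (31.1 to 41.0) and 50.1% (47.2 to 53.0) of cells, although the lymphoid T-like cells were at 9.31 and 8.94 CPM. Gm15396, on the other strand, had no UMI in B-like and dendritic-like cells of either library. Neutrophil-like cells were at 121 and 128 CPM, and alveolar macrophage-like cells at 37.2 and 57.0 CPM.

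Lpcat1 was 64.5 CPM in endothelial-like cells of room air (1036 cells) and 57.9 CPM in hyperoxia (2557 cells), and 67.0 and 68.8 CPM in dendritic-like cells. These were 6.48 and 15.4 times, and 46.2 and 29.4 times, the level that its ratio to Sftpc gives. The Sftpc level of room air endothelial-like cells includes 1 cluster of 42 cells at 13338 CPM, against 291 CPM in the largest cluster (687 cells). In AT2-like cells the log2 ratio of Lpcat1 was -0.61, and in endothelial-like cells it was -0.16 (-0.31 to -0.01). Abca3 reached 54.8 and 50.7 CPM in monocyte or interstitial macrophage-like cells, 45.7 and 40.0 CPM in endothelial-like cells and 28.7 and 25.5 CPM in alveolar macrophage-like cells. In 5 of 10 classes of room air and 4 of 10 of hyperoxia its interval lay above 10 times the ratio in AT2-like cells. For Napsa this was so in 4 classes of each library, and for Lpcat1 in 1 and 3.

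Club-like cells, an airway epithelial class named from markers such as Scgb1a1, Scgb3a2 and Cyp2f2, held several members at a higher share than Sftpc. The 28 club-like cells of room air held Sftpb at 1096 CPM, Sftpa1 at 1050 CPM, Sftpd at 770 CPM and Abca3 at 71.7 CPM, which is 12.0%, 7.51%, 23.8% and 8.56% of the AT2-like levels. Sftpc, by contrast, was at 0.85% of its level, and 95.3% of its UMIs came from 2 cells. The hyperoxia library lost nearly all airway cells in doublet removal, and in the 14 club-like cells left there 1 cell held 99.6% of the member UMIs. Without doublet removal, 69 club-like cells of hyperoxia held Sftpd at 1846 CPM, Sftpa1 at 1741 CPM, Sftpb at 1330 CPM, Abca3 at 105 CPM and Sftpc at 320 CPM. In 10 club-like cells of room air under the same setting these were 791, 1323, 966, 74.8 and 96.3 CPM. A further cluster under this setting best matched the club markers but was left unnamed (21 room air and 82 hyperoxia cells). It held Sftpc at 2757 and 6462 CPM, Sftpa1 at 868 and 1259 CPM, Sftpb at 1150 and 797 CPM and Sftpd at 752 and 848 CPM. SP-A, SP-B and SP-D are known products of club cells and SP-C is known from AT2 cells.

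The level of the 9 genes in classes other than AT2-like cells was higher in hyperoxia, higher in room air or alike within counting error, depending on the class and on how cells were combined. In B-like cells the summed counts gave 826 CPM (788 to 865) in room air against 1675 CPM (1638 to 1713) in hyperoxia (log2 ratio 1.02). Sftpc in B-like cells was 369 and 1053 CPM (log2 ratio 1.51), and Napsa 0.17, so the ratio without Napsa, Abca3 and Lpcat1 was 1.5. T-like, NK-like, neutrophil-like and stromal-like cells were higher in hyperoxia as well, with log2 ratios of 1.14, 1.25, 1.18 and 1.57, and so were alveolar macrophage-like (0.75) and dendritic-like cells (0.40). The median B-like cell had 4493 UMIs in room air against 2918 in hyperoxia. These medians were 6623 and 4903 in T-like, 7383 and 3776 in NK-like, 3177 and 2246 in neutrophil-like and 14355 and 11134 in stromal-like cells. In dendritic-like cells they were 14440 and 11301, and in alveolar macrophage-like cells 13609.5 and 17813. The part of depth in these ratios was not tested. Monocyte or interstitial macrophage-like cells were at 1103 and 1101 CPM, and the interval of their log2 ratio (-0.07 to 0.07) includes 0. By the same sums endothelial-like cells were at 1698 and 839 CPM (-1.02), pericyte-like cells at 2581 and 568 CPM (-2.18) and AT1-like cells at 40621 and 20785 CPM (-0.97).

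A small share of cells held most of the UMIs behind the last 3 values. In room air, 5% of the cells held 77.2% of the member UMIs of endothelial-like cells and 90.3% of those of pericyte-like cells, and 65.3% of those of AT1-like cells (77.8% in hyperoxia). Of the endothelial-like clusters, 1 with 42 room air cells stood at 16632 CPM by summed counts, although its median cell had 407 CPM. The stromal-like sums were uneven as well. A cluster of few UMIs per cell stood at 13556 CPM in room air (62 cells) and 36960 CPM in hyperoxia (390 cells). Its median cell had 1333 and 4093 CPM. Another stromal-like cluster (177 and 1037 cells) stood at 265 and 524 CPM. The median endothelial-like cell had 463 CPM in room air against 629 CPM in hyperoxia, the median pericyte-like cell 295 and 647 CPM, and the median AT1-like cell 907 and 1899 CPM. By the median cell, all 11 classes other than AT2-like and club-like cells were higher in hyperoxia. Without doublet removal the AT1-like sum was 62741 CPM in hyperoxia (169 cells), above the 40621 CPM of room air. AT2-like cells made up 4.43% of kept cells (3.79 to 5.14) in room air against 7.92% (7.41 to 8.45) in hyperoxia. The 9 genes made up 1.92% and 2.84% of the UMIs of all barcodes. The part of these shares in the background was not tested.

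**Figure D5:**
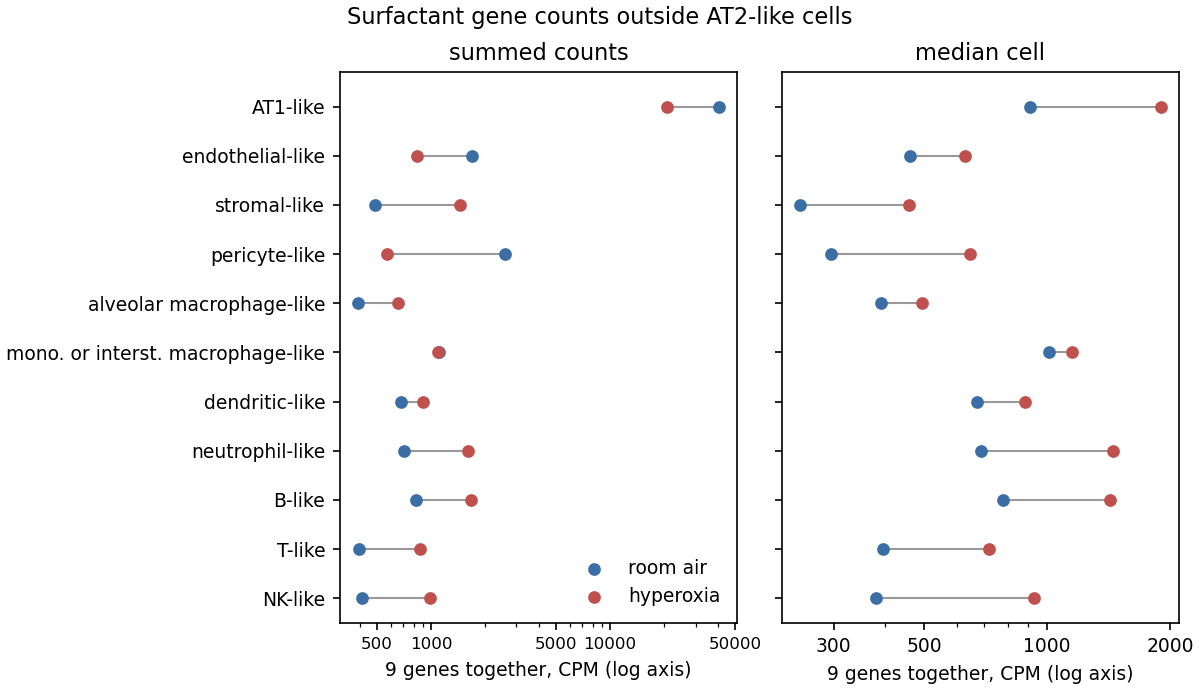
CPM of the 9 genes together (log axis) in 11 classes, from summed counts (left) and in the median cell (right), room air in blue and hyperoxia in red. Hyperoxia is higher in the median cell of each class, while sums put room air higher in AT1-like, endothelial-like and pericyte-like cells.

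The genes whose pattern was most like the mean profile of the 9 over 13 classes in 2 libraries (26 points) were sought among 2141 genes with at least 50 CPM in AT2-like cells of both. They were Cxcl15, a chemokine of lung epithelium (Pearson r = 0.98), Hc, complement component C5 (0.97), Mlc1 (0.97), S100g, a calcium-binding protein (0.96), and Tfcp2l1, a transcription factor (0.96). The points share libraries and free RNA, so r is a description. Cxcl15, Hc, Mlc1 and S100g are also among the AT2 markers that named the AT2-like cluster. Each member is itself part of the mean, so its r cannot be set against that of the other genes. Among the members, r was 0.98 for Sftpc and Sftpa1, 0.97 for Sftpb, Lamp3 and Slc34a2, and 0.96 for Sftpd. It was 0.88 for Abca3, 0.85 for Lpcat1 and 0.63 for Napsa.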

How the data were processed

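The data are 2 droplet scRNA-seq (10x Genomics, 3′ end) libraries of whole lung, 1 per group. Cell Ranger served the authors for demultiplexing and for UMI counting on mm10, and they deposited raw counts per gene and barcode, with no normalization. The labels name the v2 kit and the methods V3, and the sources name different Cell Ranger versions (2.1.1 in the submitters' processing notes). The files hold 17457 barcodes, slightly more than the cell number given in the methods, which state no cell filter.

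Barcodes with under 500 genes or over 20% mitochondrial UMIs were left out. Simulated doublets ranked the remaining cells, and 0.8% per 1000 barcodes were removed (129 in room air, 1239 in hyperoxia). Each cell was scaled to 10000 counts and logged, and 2000 variable genes, without the 9 members, pathway, mitochondrial and sex-linked genes, were reduced to 30 components. Both libraries were clustered together (20 neighbours, Leiden resolution 1, Python 3.11.15, scikit-learn 1.9.0, igraph 0.11.9, leidenalg 0.10.2). A cluster took the class whose markers it raised most, with at least 3 raised and not more leading genes of another class. In all, 14152 cells were kept. The naming rule was set with clusters in view.

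Levels are summed UMI counts per 1000000. Intervals are exact (Poisson, conditional for ratios, Clopper-Pearson for shares), Woolf intervals for ratios to Sftpc. With 1 library per group no test was possible, and a difference of at least 1.5-fold was called among genes with a mean of at least 10 CPM. The ratio calculation was run on simulated counts with counting error only and planted differences of at least 2-fold. That run holds no spread between cells or mice and no differences as small as those of the members. Named genes are the members, 4 pathway lists, marker genes and the 5 most alike genes (log2(CPM + 1)). Others, such as the leading genes of subclusters, were chosen after their values were seen. The members and lists were chosen with earlier results of these data known. Scaling alternatives used edgeR 4.0.16 and DESeq2 1.42.0 factors in R 4.3.3.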

Additional observations from a re-analysis of the deposited data

Results flagged for a closer look

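In 8 classes the summed level of the 9 genes was higher in hyperoxia by its counting interval, while it was lower in AT2-like cells (log2 ratio -0.25). The log2 ratios were 1.57 in stromal-like, 1.25 in NK-like, 1.18 in neutrophil-like, 1.14 in T-like, 1.02 in B-like, 0.75 in alveolar macrophage-like and 0.40 in dendritic-like cells. In club-like cells it was 4.67, where 1 of 14 hyperoxia cells held 99.6% of the UMIs, and without doublet removal the club-like levels were 3297 CPM in room air against 5495 CPM in hyperoxia. In stromal-like cells 1 cluster of few UMIs per cell (medians of 1518 and 1338) held the 9 genes at 13556 CPM in room air (62 cells) and 36960 CPM in hyperoxia (390 cells). The difference between the classes was not tested, since each group had 1 library.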

How the results depend on the processing

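No paired analysis was possible because each group had 1 library of pooled mice. The log2 ratio of the 9 genes together in AT2-like cells was -0.25 and moved beyond its narrow counting interval under most settings. It was -0.28 without doublet removal, -0.22 with double the removal, -0.25 with a second random seed, -0.26 with members and pathway genes in the clustering, -0.32 in CPM without the members' UMIs, -0.17 without mitochondrial, ribosomal and haemoglobin genes, -0.19 by both TMM and DESeq2 scaling, -0.22 as a mean over cells, -0.25 after subtraction of the B-like level, and -0.22 after thinning. It was 0.086 with a filter of 1000 genes and 10% mitochondrial UMIs and 0.088 with each library clustered on its own, where 7 and 8 club-like cells of room air joined the AT2-like cells. Chosen after seeing the data, both settings without club-like cells gave -0.24, and the median cell gave -0.22.

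The number of members at least 1.5-fold apart was 1. It was 0 with double the doublet removal, the stricter filter, separate clustering, the totals without mitochondrial, ribosomal and haemoglobin genes, TMM, DESeq2 factors and a 2-fold call, and 2 after subtraction of the B-like level. Sftpb, Napsa and Lpcat1 were lower in hyperoxia under all 16 planned settings. The number of pathway genes was 5, and it was 10 after subtraction, 9 after thinning, 9 with no filter on low counts and 1 at 2-fold. AT2-like cells without a UMI of Ptprc, Pecam1, Col1a2 or Scgb1a1 numbered 2 in room air and 22 in hyperoxia, too few to read, and gave -0.14, 2 members and 16 pathway genes, with Sftpa1, Sftpd, Abca3 and Lamp3 above 0.

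The B-like log2 ratio of 1.02 was 0.92 by TMM and 0.93 by DESeq2 factors, and, chosen after seeing the data, 0.87 for the median cell and 1.5 without Abca3, Napsa and Lpcat1. TMM and DESeq2 factors moved the median of all genes in AT2-like cells to 0.07. The mean difference in the share of AT2-like cells with a UMI of a member was -3.79 percentage points at 2000 UMIs and -0.43 with all UMIs. Except for the shifts explained by club-like cells, the cause of these differences was not tested. With 1 library per group, the spread between mice was not measured, and the counting intervals, set by depth, do not cover it. Levels outside AT2-like cells also differed with depth. An endothelial-like cluster with median cells of 1024 and 1059 UMIs held the 9 genes at 3195 and 3579 CPM. Another, with medians of 7443 and 8710 UMIs, held them at 451 and 585 CPM.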
